A study of Xenopus laevis with 20 samples.

Results

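The ectopic organizer that Noggin and Dkk-1 induced on the ventral side of early Xenopus laevis gastrulae was compared directly with the endogenous organizer at stage 10. The samples were taken by their titles as Nog+Dkk and Dor at stage 10, which gave 4 of the 20 arrays of the series, with 1 array of each condition from each of clutches 1 and 2. Nog+Dkk samples were the ventral pieces of bisected gastrulae that had received noggin plasmid, dkk-1 plasmid and eGFP mRNA. Dor samples were the dorsal pieces of gastrulae that had received eGFP mRNA alone, and the opposite, ventral pieces of those embryos were the Ven samples. All embryos were obtained by in vitro fertilization, injected marginally into a single ventral blastomere at the 4-cell stage, sorted at early stage 10 for ventral eGFP fluorescence and bisected, and each sample pooled 10 pieces. No dorsal piece therefore came from an embryo that had received plasmid, so Nog+Dkk against Dor alone cannot tell plasmid injection from the origin of the tissue. Ven samples, ventral like Nog+Dkk and without plasmid like Dor, are therefore read beside both. The plasmids entered only part of a ventral piece, and each piece also held animal and vegetal tissue, so that fewer expressing cells and less RNA per cell cannot be told apart in these pools. Where they are read beside the comparison, the Nog and Dkk samples of stage 10 were ventral pieces that had received 1 of the plasmids with eGFP mRNA.

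The organizer is the group of dorsal mesendodermal cells that patterns the amphibian gastrula by secreting inhibitors of BMP and Wnt ligands. It is first set up by maternal Wnt/β-catenin signaling on the dorsal side, which acts with Nodal ligands to switch on homeodomain regulators such as siamois and goosecoid. Noggin binds BMPs outside the cell, and Dkk-1 blocks the Wnt co-receptors of the Lrp family. Their combined expression on the ventral side is known to produce a secondary axis with a head.

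Values are log2 RMA intensities of Affymetrix probe sets, and the suffixes L and S name the homeologous copies of a gene in this allotetraploid frog. The lower quartile of the probe sets lay between 5.18 and 5.29 on the 4 arrays and the median between 6.81 and 6.90. Nog+Dkk and Dor correlated with an R2 of 0.989 in clutch 1 and 0.989 in clutch 2 over 15491 probe sets, a description across genes of single arrays. The SD of the log2 difference was 0.204 in clutch 1 and 0.209 in clutch 2. The same condition differed more from clutch to clutch, with an SD of 0.358 in Nog+Dkk and 0.360 in Dor, so the comparison was made within clutches. The labels were read against marker genes. Of 19 probe sets of organizer markers 18 were brighter in Dor than in Ven in both clutches, and 16 were brighter in Nog+Dkk than in Ven. Their mean log2 level was 6.80 and 6.73 in Ven, 8.61 and 8.77 in Dor, and 7.07 and 7.61 in Nog+Dkk for clutches 1 and 2.

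A limma fit with clutch as a block called 74 probe sets higher in Nog+Dkk, 0.478% of those tested, and 41 higher in Dor, 0.265% of those tested, at an adjusted p below 0.1. All 115 had the same sign in both clutches. The differences that were called ran from 0.44 to 2.196 on the log2 scale in the first direction and from -0.43 to -4.49 in the second, with medians of 0.79 and -1.05. The probe set at -4.49 carries several gene symbols and is not assigned to a gene here. Of the 41 probe sets higher in Dor, 22 differed at least 2-fold, against 25 of the 74 higher in Nog+Dkk. Of all probe sets, 99.2% lay within 1.5-fold. Gene symbols were available for 57 and 33 of the called probe sets, and 18 had no symbol and 7 several. When the Nog+Dkk array of clutch 2, whose label fields name different clutches, was left out, 36 and 27 probe sets were called. Leaving out the Nog+Dkk array of clutch 1 gave 39 and 27, the Dor array of clutch 1 24 and 22, and the Dor array of clutch 2 46 and 26. Without clutch as a block 5 and 14 were called, and with clutch as the other label field gives it 8 and 16. Of the 57 called probe sets named here, 32 kept the call with each of the 4 arrays left out in turn and 15 without clutch as a block.

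**Figure D1:**
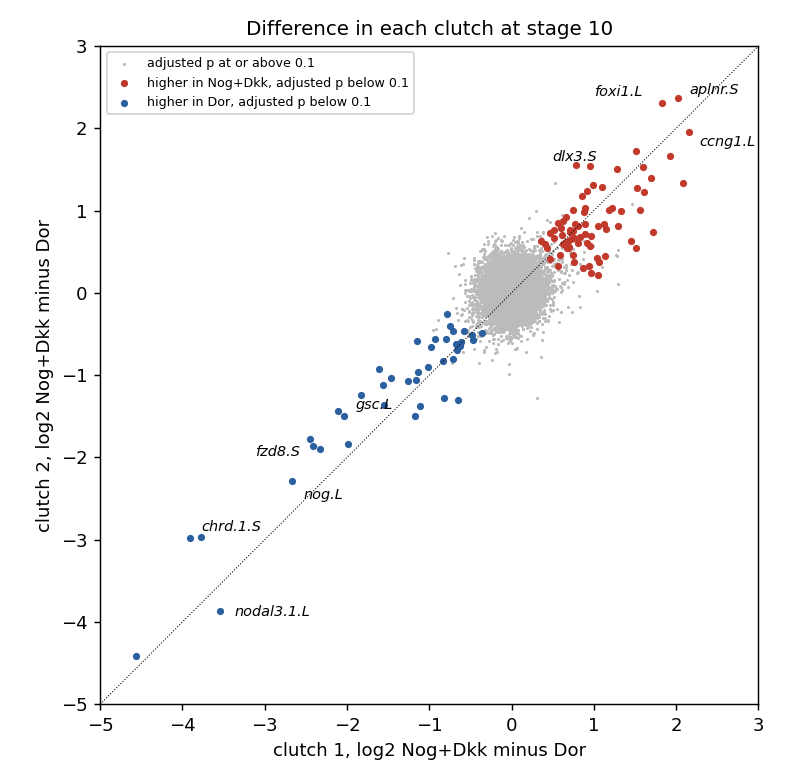
Log2 difference of Nog+Dkk minus Dor in clutch 1 (x axis) against clutch 2 (y axis) for 15491 probe sets, with the 74 called higher in Nog+Dkk in red, the 41 called higher in Dor in blue and the rest in grey. The called probe sets lie in the lower left and upper right of the plot near the dotted line of equal difference, with nodal3.1.L, chrd.1.S and nog.L at the lower end and aplnr.S, foxi1.L and ccng1.L at the upper end.

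Among probe sets with a single symbol, those that stood farthest below Dor in Nog+Dkk were for secreted factors of the organizer. nodal3.1.L, a divergent Nodal-related ligand that responds to the early dorsal Wnt signal, measured 6.21 and 5.92 in Nog+Dkk against 9.75 and 9.78 in Dor for clutches 1 and 2. The difference was -3.70 ± 0.16 (SE), which is 13.0-fold (limma adjusted p = 8.91e-11). The Ven arrays read 6.17 and 6.25, so that both Nog+Dkk arrays lay at the ventral level and far outside the Dor values.

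chrd.1.S, which encodes the BMP antagonist Chordin, was measured by a pair of probe sets. The first read 5.96 and 7.22 in Nog+Dkk, 9.87 and 10.20 in Dor, and 5.72 and 5.46 in Ven. Its difference was -3.44 ± 0.25 (adjusted p = 1.19e-07), and the second probe set gave -3.37 ± 0.24 (adjusted p = 9.93e-08). In clutch 1 the Nog+Dkk array was close to Ven, whereas in clutch 2 it stood 1.76 above Ven on the log2 scale. The distance from Dor was accordingly -3.91 in clutch 1 and -2.98 in clutch 2.

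The injected genes behaved differently from each other. nog.L, a homeolog of noggin, read 4.84 and 5.24 in Nog+Dkk, 7.51 and 7.52 in Dor, and 4.43 and 4.71 in Ven. The Nog+Dkk values lay below the lower quartile of their arrays. The Nog arrays gave 5.08 and 5.27 for nog.L and the Dkk arrays 4.56 and 4.59. The difference of Nog+Dkk from Dor for nog.L was -2.47 ± 0.11 (adjusted p = 2.48e-10), although Nog+Dkk embryos carried a noggin plasmid. dkk1.S read 7.69 and 7.93 in Nog+Dkk, 7.71 and 7.84 in Dor, and 5.80 and 5.65 in Ven. The difference of 0.04 was not called (adjusted p = 1.00), and its 95% interval ran from -0.65 to 0.73, so a difference inside that range could not be resolved by these arrays. The sources used here do not say whether either probe set also reads the plasmid transcript, and dkk1 RNA from the plasmid and from the genome cannot be told apart.

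Other ligands of the Nodal and BMP classes were brighter in Dor as well. admp.S, a BMP-like ligand made in the organizer itself, read 7.01 and 7.55 in Nog+Dkk, 9.43 and 9.40 in Dor, and 6.99 and 6.28 in Ven. Its probe sets differed by -2.14 ± 0.27 (adjusted p = 1.90e-04) and -1.91 ± 0.22 (adjusted p = 6.03e-05). nodal6.L, an early dorsal vegetal Nodal ligand, read 6.26 and 5.62 in Nog+Dkk against 7.43 and 7.12 in Dor, a difference of -1.34 ± 0.19 (adjusted p = 7.23e-04). The Ven arrays gave 6.44 and 5.63, so no Nog+Dkk array rose above its ventral counterpart for this gene. nodal5.2.L, of the same class, was lower by -0.97 ± 0.20 (adjusted p = 0.0248). That call was lost without the Nog+Dkk array of clutch 2 (adjusted p = 0.834), and also without the Dor array of clutch 1 (0.153) or clutch 2 (0.484).

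Of 16 probe sets for Nodal, Lefty, ADMP and Vg1 ligands 5 were called higher in Dor and none higher in Nog+Dkk. That is 31.2%, against 0.265% of all probe sets higher in Dor, with admp.S counted by a pair of probe sets. Members of this and the other lists were chosen with earlier results of these data known, so such shares are only a description. The median difference was -0.22 against 0.02 over all probe sets. Ligands and cofactors that are broadly present lay close together in the conditions. Of the Vg1 class of ligands, gdf3.S differed by -0.05 (95% interval -0.29 to 0.20) and gdf1.S by -0.21 (-0.55 to 0.13). tdgf1.3.L, an EGF-CFC co-receptor of Nodal, differed by -0.01 (-0.23 to 0.22). bmp2.L gave -0.08 (-0.29 to 0.13) and bmp2.S -0.23 (-0.49 to 0.04). nodal2.L gave -0.43, with a wide and wholly negative interval (-0.86 to -0.0011), and nodal1.L gave -0.23 (-0.54 to 0.08). Neither of them was called (adjusted p = 1.00 for each), and for nodal2.L closeness to Dor was not resolved.

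Transcription factors of the organizer formed the list with the lowest median, -0.39. Of its 30 probe sets 11 were called higher in Dor, 36.7% against 0.265% of all probe sets, and none higher in Nog+Dkk. Without clutch as a block only gsc.S, sia1.L and hhex.L of these kept the call (limma adjusted p = 4.52e-05, 0.0420 and 0.0947). The members were chosen with earlier results of these data known, and gsc, otx2 and crx are each counted with several probe sets. The median was -0.52 in clutch 1 and -0.24 in clutch 2, so the Nog+Dkk array of clutch 2 lay nearer to its Dor array. Against Ven the same list had a median of 0.24 in Nog+Dkk and 0.98 in Dor, where both figures share the Ven arrays.

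The homeologs of goosecoid, a homeodomain repressor of the organizer, differed in how far Nog+Dkk stood above Ven. gsc.L read 6.99 and 7.95 in Nog+Dkk, 9.03 and 9.45 in Dor, and 6.30 and 6.35 in Ven. gsc.S read 5.65 and 6.11 in Nog+Dkk, 8.09 and 7.88 in Dor, and 5.503 and 5.42 in Ven. Both were higher in Dor, by -1.77 ± 0.18 (adjusted p = 1.92e-05) and -2.11 ± 0.14 (adjusted p = 4.95e-08). In each case no Nog+Dkk value reached a Dor value, and the difference between the homeologs was not tested. The gsc.L call was lost without clutch as a block (adjusted p = 0.213), and a further gsc.L probe set gave -0.02 and was not called (adjusted p = 1.00).

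otx2, which is required for head formation, was called with each of its 3 probe sets that carry a single symbol. A further probe set that the paper lists as otx2 has no symbol here and is given below by its ID. otx2.L read 5.88 and 6.73 in Nog+Dkk, 7.44 and 7.86 in Dor, and 5.39 and 5.63 in Ven, a difference of -1.34 ± 0.18 (adjusted p = 3.31e-04). The second otx2.L probe set gave -1.25 ± 0.17 (adjusted p = 3.94e-04) and otx2.S gave -1.27 ± 0.20 (adjusted p = 0.00178). The otx2 values in Nog+Dkk thus stood between Ven and Dor in both clutches. Without the Nog+Dkk array of clutch 1 the otx2.S call was lost (adjusted p = 0.131), and without clutch as a block all 3 were lost (adjusted p from 0.439 to 1.00).

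crx, a close relative of the otx genes in the head organizer, showed the same order. crx.L read 8.96 and 9.57 in Nog+Dkk, 9.95 and 10.23 in Dor, and 8.29 and 8.65 in Ven, a difference of -0.82 ± 0.12 (adjusted p = 0.00151), which was lost without the Dor array of clutch 1 (adjusted p = 0.139). crx.S was called by 1 probe set at -0.52 ± 0.13 (adjusted p = 0.0991) and not by the other, at -0.40 (adjusted p = 0.692). When the 4 arrays were left out in turn, the crx.S call remained only without the Dor array of clutch 2.

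**Figure D2:**
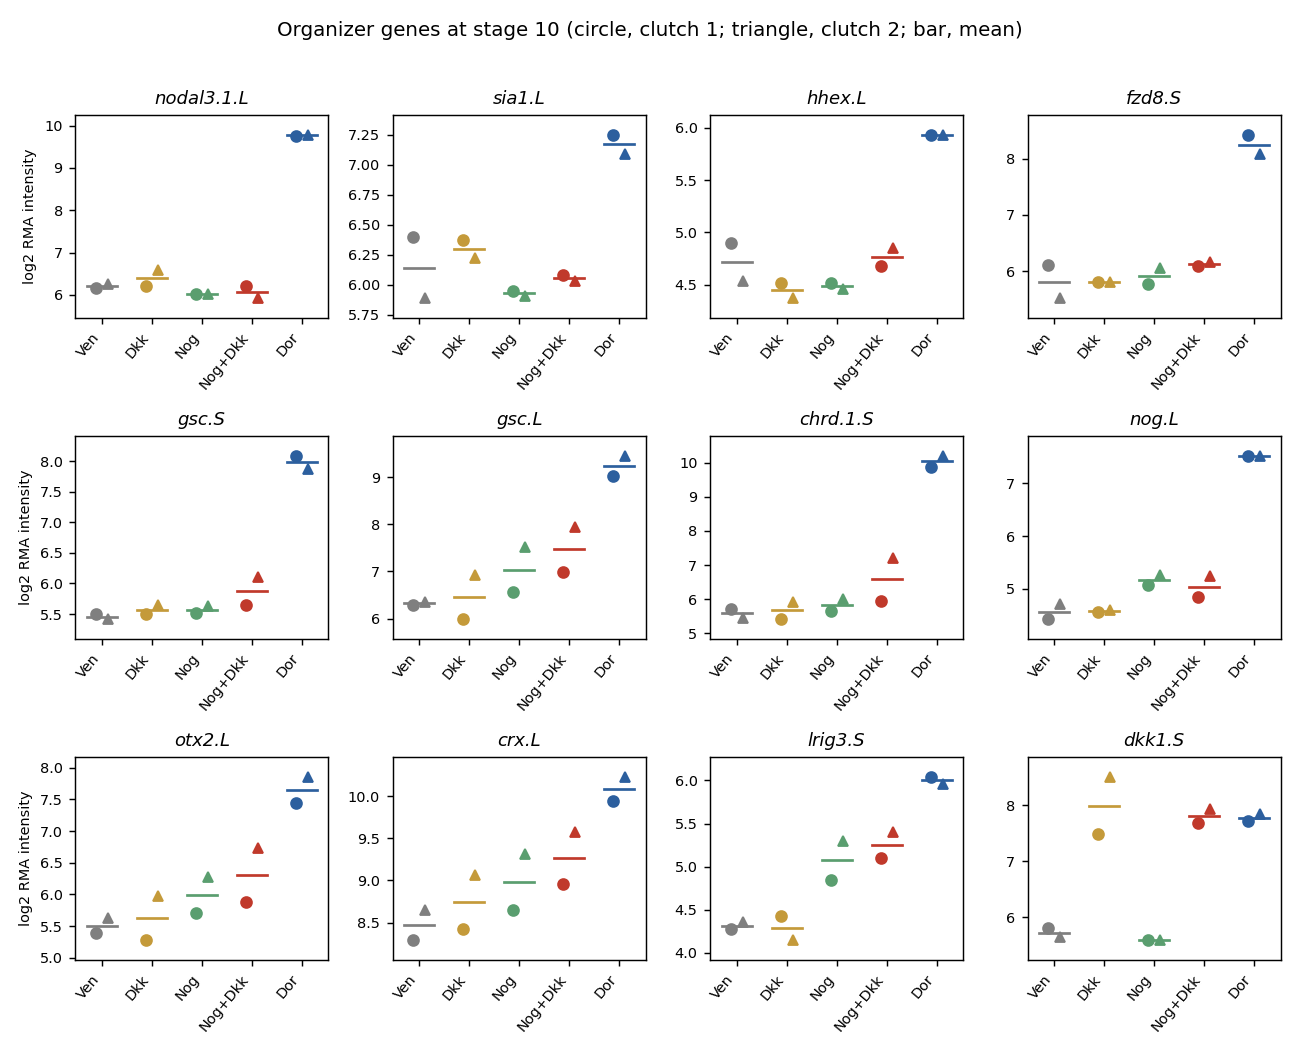
Log2 RMA intensity (y axis) of 12 probe sets in the 5 conditions of stage 10 (x axis), with clutch 1 as circles, clutch 2 as triangles and the mean as a bar. For nodal3.1.L, sia1.L and hhex.L the Nog+Dkk values sit near those of Ven, and for fzd8.S only that of clutch 1 does, with clutch 2 above Ven. For gsc.L, otx2.L, crx.L and lrig3.S the Nog+Dkk values sit between Ven and Dor, and for dkk1.S they lie close to Dor.

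Regulators at the head of the dorsal program stayed near the ventral level. sia1.L, the homeodomain factor siamois that maternal β-catenin switches on, read 6.08 and 6.03 in Nog+Dkk, 7.25 and 7.09 in Dor, and 6.40 and 5.89 in Ven. It was higher in Dor by -1.11 ± 0.15 on the scale of Nog+Dkk minus Dor (adjusted p = 3.44e-04). hhex.L, a homeobox repressor of anterior endoderm, read 4.68 and 4.85 in Nog+Dkk against 5.93 and 5.93 in Dor, a difference of -1.16 ± 0.15 (adjusted p = 3.44e-04). Its Ven arrays gave 4.90 and 4.53, so the Nog+Dkk values fell among them. sia2.S, at 3.89 and 3.86 in Nog+Dkk against 4.37 and 4.07 in Dor, lay below the lower quartile of every array and was not called (adjusted p = 0.747).

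Smaller differences were found for lhx1.L, a LIM homeodomain factor, and foxa4.L, a forkhead factor of the dorsal midline. lhx1.L gave -0.68 ± 0.14 (adjusted p = 0.0236) and foxa4.L -0.57 ± 0.13 (adjusted p = 0.0486). The foxa4.L call was lost with any of the 4 arrays left out, and that of lhx1.L with any but the Nog+Dkk array of clutch 2. The forkhead repressor foxd3.S read 6.18 and 6.47 in Nog+Dkk, 6.77 and 7.19 in Dor, and 5.0955 and 5.32 in Ven, and was not called (-0.66 ± 0.24, adjusted p = 0.633). The 4 narrowest intervals among the uncalled members were those of an lhx5.S probe set (-0.11, from -0.33 to 0.11), the notochord homeobox gene not.S (-0.15, from -0.41 to 0.11), sia2.S (-0.34, from -0.61 to -0.06, which leaves out 0) and hesx1.S (0.10, from -0.18 to 0.38).

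Among the secreted antagonists, members differed in both directions. Of 13 probe sets of BMP antagonists 4 were called higher in Dor (30.8%) and 2 higher in Nog+Dkk (15.4%), with a median of -0.01. Of 15 probe sets of Wnt antagonists 2 were called higher in Dor (13.3%) and 1 higher in Nog+Dkk (6.67%), with a median of 0.01. Over all probe sets the shares were 0.265% higher in Dor and 0.478% higher in Nog+Dkk. cer1.S, the Cerberus protein that binds Nodal, BMP and Wnt ligands and is counted in both lists, read 7.73 and 8.09 in Nog+Dkk, 9.28 and 9.45 in Dor, and 7.58 and 7.24 in Ven. It was higher in Dor by -1.46 ± 0.18 (adjusted p = 1.79e-04). frzb.L, a secreted Frizzled-related Wnt inhibitor, gave -0.83 ± 0.16 (adjusted p = 0.0165), a call that was lost with any of the 4 arrays left out. The antagonists called higher in Nog+Dkk were szl.L and bambi.L, which belong to the ventral BMP program and are described with it.

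Uncalled antagonists differed in how far the arrays resolved them, from twsg1.S with a narrow interval to dkk1.S and szl.S with wide ones. twsg1.S, the BMP-binding protein Twisted gastrulation, gave -0.06 (95% interval -0.27 to 0.15) and twsg1.L 0.17 (-0.07 to 0.41). grem1.L gave 0.18 (-0.07 to 0.43), and follistatin, fst.L, -0.30 (-0.53 to -0.06) with an adjusted p of 0.698. Of the Wnt antagonists, sfrp5.L gave 0.01 (-0.24 to 0.26) and wif1.S 0.13 (-0.14 to 0.40). The intervals of other uncalled Wnt antagonists lay below 0, for a frzb2.L probe set at -0.53 (-0.88 to -0.18, adjusted p = 0.377), frzb.S at -0.45 (-0.83 to -0.07, adjusted p = 0.800) and kremen2.S at -0.44 (-0.78 to -0.0996, adjusted p = 0.669). sfrp2.S, another secreted Frizzled-related protein, read 9.47 and 8.72 in Nog+Dkk, 9.06 and 8.32 in Dor, and 8.82 and 8.095 in Ven, so that in each clutch Nog+Dkk was the brightest of these 3 conditions, but the difference from Dor of 0.41 ± 0.12 was not called (adjusted p = 0.228).

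Of 48 probe sets for Wnt receptors and convergent extension 2 were called, both higher in Dor, which is 4.17% against 0.265% of all probe sets, and the median was 0.00. The called lrig3.S probe set had been picked by the paper from these same arrays for in situ hybridization, so this share is only a description. fzd8.S, a Frizzled receptor of the anterior organizer, read 6.0975 and 6.17 in Nog+Dkk, 8.42 and 8.07 in Dor, and 6.11 and 5.52 in Ven. The difference was -2.11 ± 0.19 (adjusted p = 3.25e-06). A second fzd8.S probe set went the other way at 0.33 and fzd8.L gave 0.01, and neither was called (adjusted p = 0.828 and 1.00). lrig3.S, a leucine-rich repeat membrane protein, read 5.105 and 5.40 in Nog+Dkk, 6.04 and 5.96 in Dor, and 4.27 and 4.36 in Ven, so that Nog+Dkk stood above Ven and below Dor. Its difference of -0.75 ± 0.18 (adjusted p = 0.0795) was lost with any of the 4 arrays left out, and a second lrig3.S probe set gave -0.14 (adjusted p = 1.00). prickle1.S, a planar cell polarity component, gave 0.36 and was not called (adjusted p = 0.775).

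Neural, endodermal and mesodermal regulators are read against the 0.265% of all probe sets that were higher in Dor. Of 50 probe sets of neural plate regulators 1 was called (2%), for the zinc finger factor zic1.S, which was higher in Dor (-0.65 ± 0.12, adjusted p = 0.0127, lost with any of the 4 arrays left out), while its second probe set gave -0.49 (adjusted p = 0.187). Of 24 probe sets of endoderm regulators 2 were called (8.33%), for cer1.S and hhex.L. None of 31 mesoderm probe sets was called by limma or by rank products of the clutch-matched pairs, and the list ran from -0.51 to 0.38. A list of this size would hold no call at the share over all probe sets, so nothing is read from that count. By limma 8 of the 31 had an unadjusted p below 0.05, against 746 of all 15491, so closeness to Dor was not resolved for this list. fgf20.L was the lowest mesoderm probe set, at -0.51 ± 0.15 (adjusted p = 0.294). The median was -0.01 for the neural list and -0.03 for both of the others. Mean log2 levels of 13 endoderm marker probe sets were 8.73 and 9.02 in Nog+Dkk, 8.79 and 9.02 in Dor, and 8.60 and 8.67 in Ven.

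The remaining probe sets higher in Dor included 6 without a symbol. Of these, Xl.11672.1.A1_at is listed by the paper among its otx2 probe sets. Xl.11672.1.A1_at read 5.94 and 7.03 in Nog+Dkk, 7.77 and 8.27 in Dor, and 5.45 and 5.17 in Ven, with a difference of -1.54 ± 0.20 (adjusted p = 2.41e-04). Xl.19601.1.A1_at was dim throughout, at 3.63 and 3.56 in Nog+Dkk, 4.75 and 4.94 in Dor, and 4.01 and 4.25 in Ven, and its difference was -1.25 ± 0.11 (adjusted p = 3.23e-06). It was lower in Nog+Dkk than in Ven in both clutches, as were 9 of the 41 probe sets higher in Dor in all, nodal6.L and nodal5.2.L among them.

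In the opposite direction, some genes of the ventral BMP4 program were brighter in Nog+Dkk than in Dor. BMP4 signaling switches on a group of co-expressed ventral genes that includes its own feedback inhibitors. Of 38 probe sets of this list 8 were called higher in Nog+Dkk, 21.1% against 0.478% of all probe sets, and none higher in Dor. The list was written with earlier results of these data known, so this share is only a description. Of all 38, 7 were negative, and the median was 0.25. Without the Nog+Dkk array of clutch 2 the count was 3, and without clutch as a block it was 0.

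ventx1.1.L, a homeodomain repressor of dorsal genes, read 8.82 and 8.14 in Nog+Dkk, 7.49 and 7.15 in Dor, and 8.83 and 8.59 in Ven. The difference from Dor was 1.16 ± 0.17 (adjusted p = 0.00110), whereas a second ventx1.1.L probe set gave 0.01 and was not called (adjusted p = 1.00). Its relatives ventx2.2.L (1.19 ± 0.15, adjusted p = 2.28e-04), ventx2.1.S (0.72 ± 0.11, adjusted p = 0.00227) and ventx3.2.S (0.80 ± 0.16, adjusted p = 0.0255) were also higher in Nog+Dkk. The probe sets of ventx1.1.L, ventx2.2.L and ventx2.1.S that were called kept the call with each of the 4 arrays left out in turn, and ventx3.2.S only without the Dor array of clutch 2. Near-identical ventx copies can share probe signal, so these probe sets are not independent of each other.

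The feedback inhibitors bambi.L and szl.L were at ventral levels in Nog+Dkk. bambi.L, a pseudoreceptor that dampens BMP signaling, read 8.18 and 8.66 in Nog+Dkk, 7.19 and 7.34 in Dor, and 8.22 and 8.83 in Ven, a difference of 1.15 ± 0.23 (adjusted p = 0.0209). szl.L, the tolloid inhibitor Sizzled, read 4.78 and 4.95 in Nog+Dkk, 3.26 and 3.68 in Dor, and 4.86 and 5.16 in Ven, a difference of 1.40 ± 0.28 (adjusted p = 0.0209). Nog+Dkk minus Ven was -0.04 and -0.17 for bambi.L and -0.09 and -0.21 for szl.L in clutches 1 and 2, and no Nog+Dkk value overlapped those of Dor. All szl.L values given lay below the lower quartile of their arrays. The homeolog szl.S gave 0.90 and was not called (adjusted p = 0.715). Nor were bambi.S at 0.50 (adjusted p = 0.306), smad6.L at -0.03 and the smad7.L probe sets at 0.13, 0.25 and 0.28. Each of the called genes lost the call with 3 of the 4 arrays left out in turn, including the Nog+Dkk array of clutch 2 (adjusted p = 0.578 for bambi.L and 0.393 for szl.L). The ligand bmp4.S gave 0.64 ± 0.13 (adjusted p = 0.0234) and the BMP target id3 0.61 ± 0.15 (adjusted p = 0.0935), and both calls were lost with any of the 4 arrays left out. A second id3 probe set gave 0.50 (adjusted p = 0.855). The homeobox targets msx1.L (0.59, adjusted p = 0.752) and msx2.L (0.76, adjusted p = 0.247) were not called.

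wnt8a.L, the zygotic ventrolateral Wnt ligand, read 10.36 and 10.29 in Nog+Dkk, 9.17 and 9.28 in Dor, and 10.07 and 10.10 in Ven. Its difference was 1.098 ± 0.14 (adjusted p = 1.79e-04). It was the single probe set called among 35 of Wnt targets and posterior genes (2.86% against 0.478% of all probe sets), whose median was -0.02. The posterior homeobox genes cdx1.S (0.75, adjusted p = 0.175) and cdx4.L (0.66, adjusted p = 0.781) were not called. The wnt8a.L call remained in each of the fits that left out an array and without clutch as a block (adjusted p = 0.0334).

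Some ectodermal genes outside the neural plate were brighter in Nog+Dkk than in Dor. Of 39 probe sets of this list 11 were called higher in Nog+Dkk, 28.2% against 0.478% of all probe sets, and none higher in Dor. This list too was written with earlier results of these data known, so the share is only a description. Of all 39, 6 were negative, and the median of 0.29 was the highest of the 17 lists. Without the Nog+Dkk array of clutch 2 the count was 4, and without clutch as a block 1. All 13 probe sets of the epidermal markers, which were chosen with earlier results of these data known, were brighter in Nog+Dkk than in Dor in both clutches. Keratin probe sets of the list outside these markers ran from -0.16 for krt18.1.L to 1.18 for krt12.5.S, and tp63.L gave 0.05, none of them called. The mean log2 level of the markers was 7.31 and 7.48 in Nog+Dkk, 6.59 and 6.68 in Dor, and 7.05 and 7.33 in Ven, and the part that the amount of ectoderm in each piece played was not tested.

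dlx3.S, a homeodomain factor of non-neural ectoderm, read 7.63 and 7.64 in Nog+Dkk, 6.35 and 6.14 in Dor, and 7.44 and 7.25 in Ven. The difference was 1.40 ± 0.20 (adjusted p = 0.00102). dlx5.L (0.81 ± 0.13, adjusted p = 0.00293), the AP-2 factor tfap2a.L (0.71 ± 0.12, adjusted p = 0.00477) and the ectodermal forkhead genes foxi4.2.L (1.07 ± 0.16, adjusted p = 0.00135) and foxi4.2.S (0.93 ± 0.17, adjusted p = 0.0113) lay in the same direction. A second foxi4.2.L probe set gave 0.18 and was not called (adjusted p = 1.00). The calls of dlx3.S, dlx5.L and foxi4.2.L remained with each of the 4 arrays left out, whereas foxi4.2.S kept its call only without the Dor array of clutch 2, and tfap2a.L lost it without the Nog+Dkk array (adjusted p = 0.253) or the Dor array (0.134) of clutch 2.

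The calls of keratins and epidermal regulators rested on fewer of the arrays. krt12.4.S read 4.85 and 4.999 in Nog+Dkk, 3.99 and 3.83 in Dor, and 4.05 and 4.65 in Ven, all below the lower quartile of their arrays. Its difference from Dor was 1.02 ± 0.20 (adjusted p = 0.0209). krt12.4.L gave 0.98 ± 0.24 (adjusted p = 0.0914), and krt70.S gave 0.69 ± 0.14 and 0.75 ± 0.17 with a pair of its 4 probe sets (adjusted p = 0.0236 and 0.0684), whereas the other two gave 0.40 and 0.58 and were not called (adjusted p = 0.790 and 0.191). grhl3.L, a Grainyhead factor of epidermis, gave 0.88 ± 0.21 (adjusted p = 0.0963), and trim29.L, which no list holds, gave 1.17 ± 0.26 (adjusted p = 0.0547). The calls of grhl3.L and krt12.4.L were lost with any of the 4 arrays left out, and those of krt12.4.S, krt70.S and trim29.L with 2 or 3 of them.

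**Figure D3:**
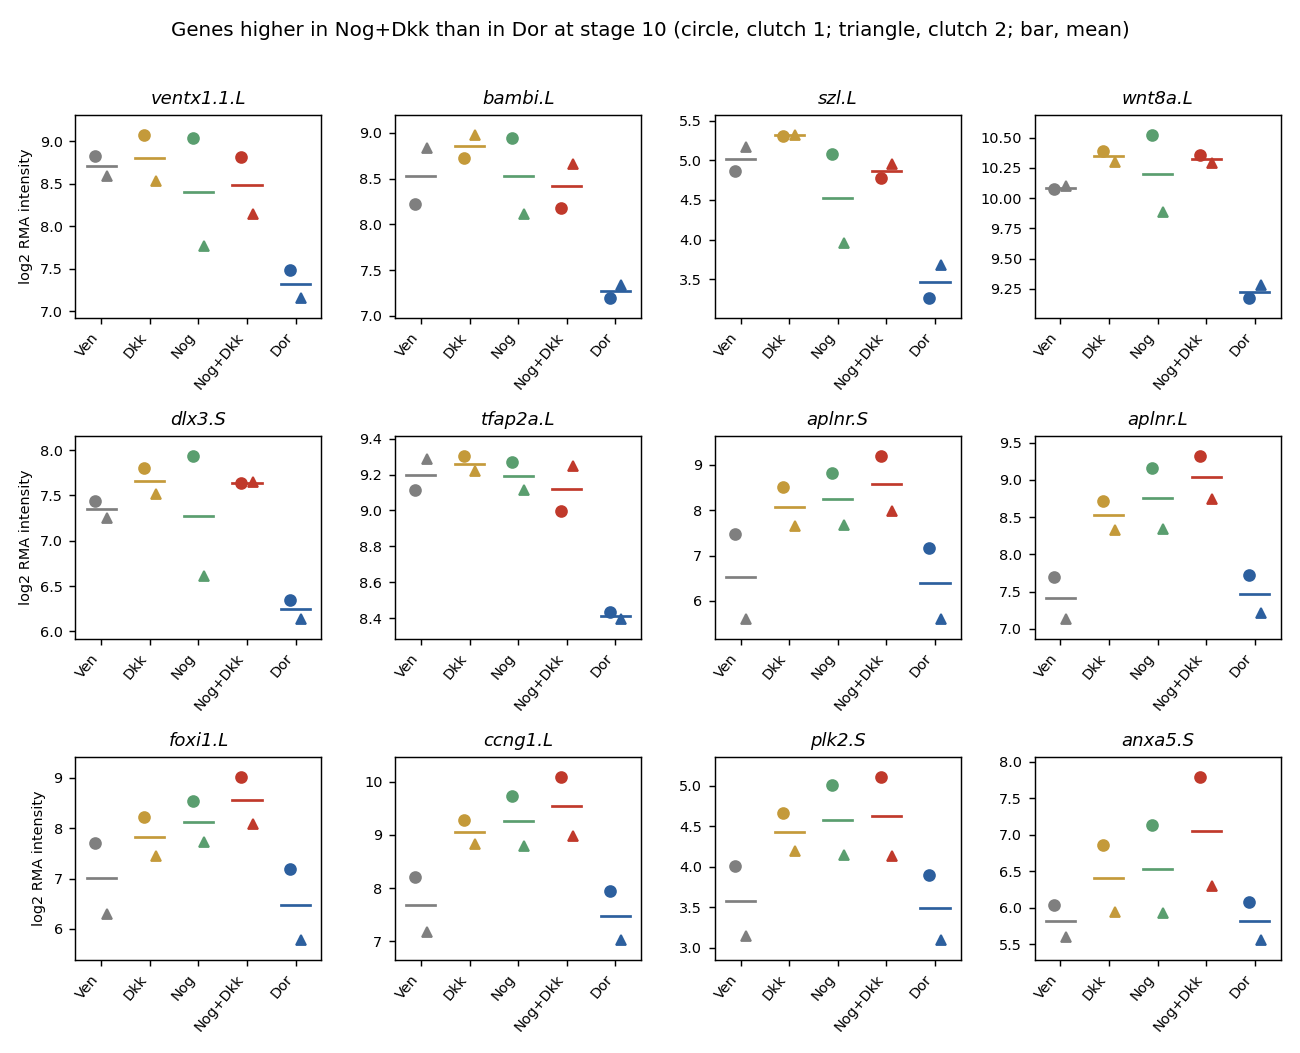
Log2 RMA intensity (y axis) of 12 probe sets called higher in Nog+Dkk than in Dor, in the 5 conditions of stage 10 (x axis), with clutch 1 as circles, clutch 2 as triangles and the mean as a bar. For ventx1.1.L, bambi.L, szl.L and tfap2a.L the Nog+Dkk mean lies at or below that of Ven, whereas for aplnr.S, aplnr.L, foxi1.L, ccng1.L, plk2.S and anxa5.S it lies above both Ven and Dor in each clutch.

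A further set of genes was brighter in Nog+Dkk than in either condition without plasmid, and held the largest differences in this direction. aplnr.S, a copy of the apelin receptor, a G-protein-coupled receptor of early mesoderm and vessels, read 9.20 and 7.98 in Nog+Dkk, 7.17 and 5.61 in Dor, and 7.47 and 5.598 in Ven. Its difference from Dor was 2.196 ± 0.17, or 4.58-fold (adjusted p = 2.46e-07). aplnr.L read 9.32 and 8.74 in Nog+Dkk, 7.72 and 7.21 in Dor, and 7.70 and 7.13 in Ven, a difference of 1.57 ± 0.11 (adjusted p = 1.47e-07). The aplnr.S values of clutch 2 were lower in every condition, yet within each clutch Nog+Dkk exceeded Dor by at least 2.03.

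foxi1.L, an ectodermal forkhead factor, read 9.02 and 8.08 in Nog+Dkk, 7.19 and 5.78 in Dor, and 7.72 and 6.29 in Ven, a difference of 2.07 ± 0.17 (adjusted p = 7.21e-07). ccng1.L, cyclin G1, a target of p53 in mammals, read 10.09 and 8.98 in Nog+Dkk, 7.94 and 7.03 in Dor, and 8.21 and 7.18 in Ven, a difference of 2.05 ± 0.18 (adjusted p = 1.61e-06). plk2.S, a polo-like kinase that is likewise a mammalian p53 target, was higher by 1.12 ± 0.13 (adjusted p = 6.88e-05). It read 5.11 and 4.13 in Nog+Dkk, whereas the Dor arrays gave 3.89 and 3.09, all below the lower quartile of their arrays. A probe set of the homeolog plk2.L gave 0.20 and was not called. Without clutch as a block, the call of aplnr.L remained (adjusted p = 0.0645) and those of aplnr.S (0.796), foxi1.L (0.522), ccng1.L (0.350) and plk2.S (1.00) were lost. High values were also found for them in the ventral pieces that had received a single plasmid. ccng1.L read 9.72 and 8.78 in Nog and 9.27 and 8.83 in Dkk, foxi1.L 8.54 and 7.72 in Nog and 8.21 and 7.44 in Dkk, and aplnr.S 8.82 and 7.67 in Nog and 8.50 and 7.65 in Dkk. At stage 10 the samples in which they were bright had received plasmid and neither Dor nor Ven had, so a plasmid injection and the proteins it encoded cannot be told apart for them. At stage 11.5, in other clutches, samples without plasmid were bright for some of these genes, with Ven arrays at 7.78 and 8.06 for aplnr.S and at 8.88 and 9.05 for aplnr.L.

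Of 32 probe sets for the p53 response and DNA damage 2 were called, ccng1.L and plk2.S, which is 6.25% against 0.478% of all probe sets higher in Nog+Dkk, and the median was 0.02. gadd45g.S, a growth arrest gene of the same list, gave -0.51 (adjusted p = 0.669), and btg1.S 0.40 (adjusted p = 0.477). Of 23 innate immune and 32 immediate early and stress probe sets neither limma nor rank products called any, nor of 10 germ plasm and 28 housekeeping probe sets. In that order 1, 3, 1 and 0 of them had an unadjusted p below 0.05. With 0.478% and 0.265% called over all probe sets, lists of these sizes would hold no call at the overall share, so nothing is read from these counts. Medians were 0.03, 0.00, 0.09 and 0.03. In these 4 lists the most extreme members were klf2.S at 0.39 and dnd1.L at -0.43.

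Of the 15 probe sets of the apelin receptor and blood vessel list 4 were called higher in Nog+Dkk, 26.7% against 0.478% of all probe sets. The median was 0.10. Beside the aplnr copies the called members were rasl11b.L, a small Ras-like GTPase (1.05 ± 0.18, adjusted p = 0.00421), and kitlg.L, the Kit ligand (0.81 ± 0.15, adjusted p = 0.0113). From these same arrays the paper had placed aplnr.S, a paralog of it and rasl11b.L in a sub-cluster. It had also picked the kitlg.L probe set for in situ hybridization. The list was written with such results known, so its count is only a description. rasl11b.L read 10.30 and 9.15 in Nog+Dkk, 9.01 and 8.34 in Dor, and 9.10 and 8.46 in Ven. It kept the call without either clutch 2 array and lost it without the Nog+Dkk (adjusted p = 0.272) or the Dor array (0.139) of clutch 1, while kitlg.L lost it without the Nog+Dkk array of clutch 2 (0.285) or the Dor array of clutch 1 (0.325). The vessel receptors flt1.L (0.30, adjusted p = 0.917) and tek.S (0.21, adjusted p = 1.00) were not called.

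Of genes outside the lists, marchf8.L, a membrane-bound E3 ubiquitin ligase, read 9.67 and 10.13 in Nog+Dkk, 8.12 and 9.12 in Dor, and 8.32 and 9.35 in Ven, a difference of 1.28 ± 0.18 (adjusted p = 7.22e-04), and its further probe sets gave 0.83 and 0.96 (adjusted p = 0.00421 and 4.54e-04). anxa5.S, a phospholipid-binding annexin, read 7.80 and 6.30 in Nog+Dkk, 6.08 and 5.56 in Dor, and 6.03 and 5.5985 in Ven. Its difference of 1.23 ± 0.20 (adjusted p = 0.00339) was unequal between clutches, at 1.72 in clutch 1 and 0.74 in clutch 2, and the call was lost without either array of clutch 1. The other 5 probe sets of anxa5.S ran from -0.09 to 0.36, and none was called (adjusted p = 1.00 for each). Among probe sets without a symbol, Xl.1321.1.S1_at gave 1.80 ± 0.25 (adjusted p = 4.66e-04) and Xl.11186.1.A1_at 1.71 ± 0.23 (adjusted p = 3.53e-04). Nog+Dkk was above Ven as well as Dor in both clutches for 52 of the 74 probe sets called higher in Nog+Dkk, and between Ven and Dor in both clutches for 25 of the 41 called higher in Dor. These positions share the Nog+Dkk arrays with the calls themselves and are given as a description.

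**Figure D4:**
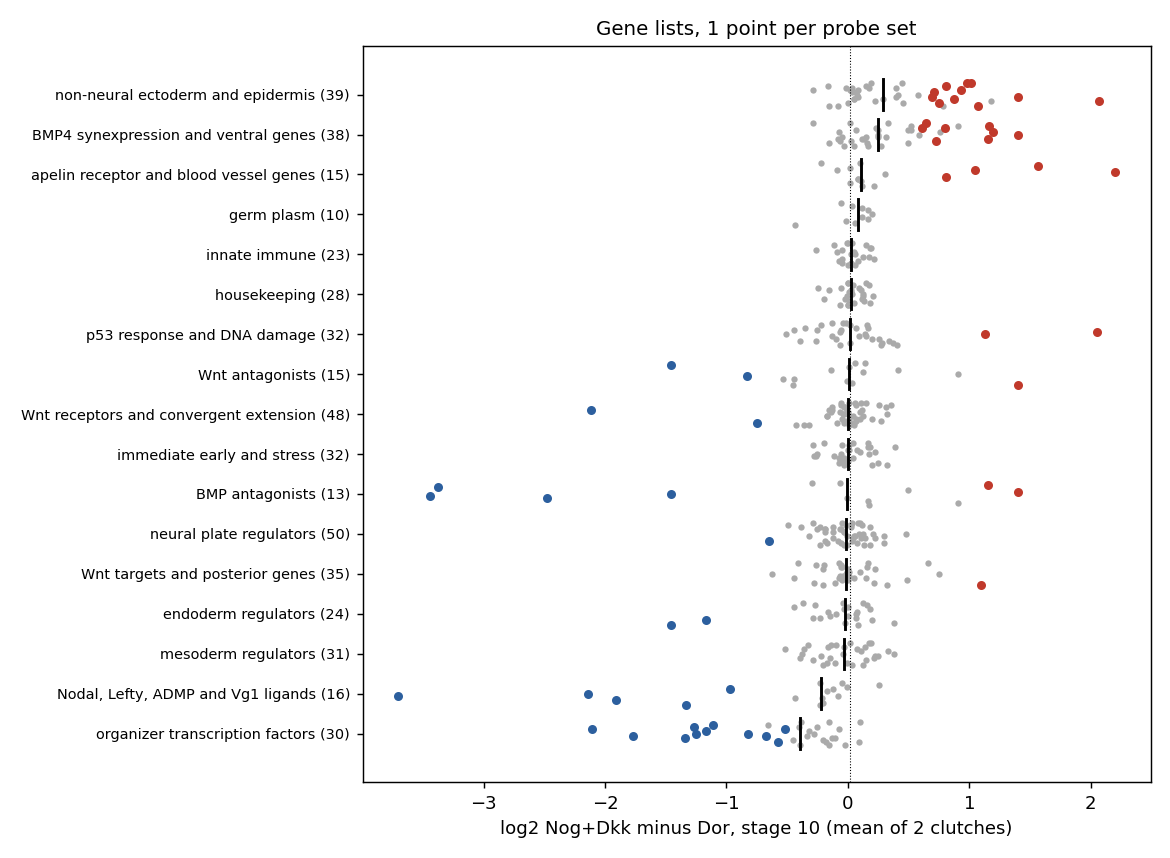
Log2 difference of Nog+Dkk minus Dor at stage 10 (x axis) for each probe set of 17 gene lists (y axis, number of probe sets in brackets), with called probe sets in red or blue, the rest in grey, the median of a list as a black bar and the median of all probe sets, 0.02, as a dotted line. Organizer transcription factors have the lowest median, -0.39, and non-neural ectoderm the highest, 0.29, while single members of other lists lie far from medians near 0.

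Whether adding Dkk-1 to Noggin moved the ventral pieces relative to Dor was asked by comparing Nog+Dkk with Nog, the condition without the dkk-1 plasmid. At stage 10 limma called 1 probe set, 0.00646% of those tested, for dkk1.S, which read 5.59 and 5.601 in Nog and was 2.21 ± 0.33 higher in Nog+Dkk (adjusted p = 0.0416). That call was lost without either of the Nog+Dkk arrays. At an unadjusted p below 0.05, 739 probe sets were higher and 266 lower in Nog+Dkk than in Nog. Such a threshold also passes probe sets by chance, so these counts are not read as effects of Dkk-1. The median difference over all probe sets was 0.01, and it was -0.01 after cyclic loess normalization. Levels in Nog are therefore given for a few organizer genes, without a claim of difference. chrd.1.S read 5.67 and 6.01 in Nog, against 5.96 and 7.22 in Nog+Dkk, and gsc.L read 6.56 and 7.51 in Nog. nodal3.1.L read 6.02 and 6.03 in Nog against 6.21 and 5.92 in Nog+Dkk. For nog.L the Nog arrays gave 5.08 and 5.27, both above the 4.84 and 5.24 of Nog+Dkk.

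At stage 11.5 the same comparison was made with clutches 3 and 4. Its difference from that of stage 10 was called for 24 probe sets, 0.155% of those tested, of which 6 moved toward higher values in Nog+Dkk relative to Dor and 18 toward lower ones. nodal3.1.L went from -3.70 to -0.62, a change of 3.08 ± 0.22 (adjusted p = 7.08e-07), as the Dor arrays read 6.38 and 7.04 at stage 11.5. For chrd.1.S the Nog+Dkk arrays were bright at stage 11.5, at 9.08 and 10.02 against 10.34 and 10.76 in Dor. The Ven arrays were brighter at stage 11.5 too, at 7.26 and 8.80 against 5.72 and 5.46 at stage 10. The difference of Nog+Dkk minus Dor shrank by 2.44 ± 0.35 (adjusted p = 0.00352) to -1.001. In the opposite direction, aplnr.S went from 2.196 to 0.17 and foxi1.L from 2.07 to 0.56. The stages came from different clutches. By the paper's methods, stage 10 embryos were cut by the position of the blastopore lip and stage 11.5 embryos by eGFP fluorescence. The effects of stage, of clutch and of the way of cutting therefore cannot be told apart here. Without clutch as a block 1 probe set was called, without clutch 1 or clutch 2 it was 9 each time, without clutch 3 41 and without clutch 4 88. Leaving out single arrays of stage 10 gave 16 without Nog+Dkk of clutch 1, 14 without Nog+Dkk of clutch 2, and 13 without either Dor array.

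**Figure D5:**
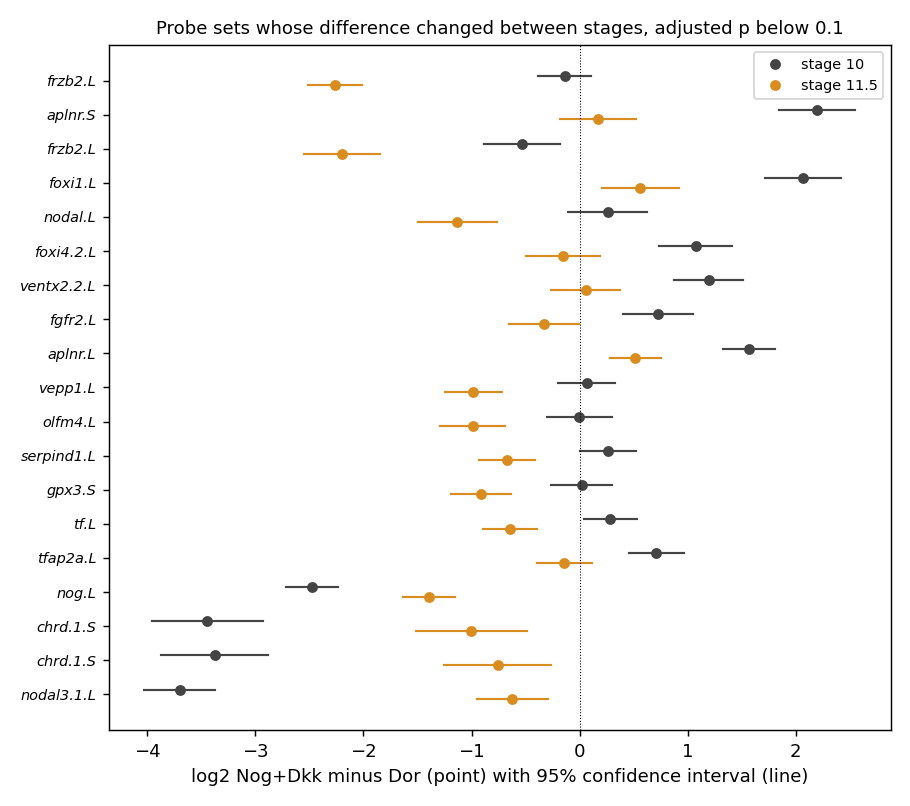
Log2 difference of Nog+Dkk minus Dor (x axis; point, estimate; line, 95% confidence interval) at stage 10 in grey and at stage 11.5 in orange, for the probe sets with a gene symbol whose difference changed between the stages (y axis). nodal3.1.L moved from -3.70 to -0.62 and aplnr.S from 2.196 to 0.17, whereas 1 frzb2.L probe set went from -0.14 to -2.26.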

How the data were processed

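RNA of pooled dorsal or ventral pieces of gastrulae was hybridised to Affymetrix Xenopus laevis arrays. The authors summarised each probe set by RMA (background correction, quantile normalization and median polish), named without a version in the submitters' processing notes, and deposited an intensity per probe set and array on a linear scale, which was log2 transformed here. Arrays carry no read depth, so their number limits the precision. The sources used here do not say whether both stages were normalized together. Of 15611 probe sets 120 control probe sets were left out, and 15491 were tested. Of these 9304 had 1 gene symbol in the platform annotation, 195 several and 5992 none; 2 symbols were updated, and no gene was named from a probe set with several.

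All 20 arrays were fitted together in limma 3.58.1 (R 4.3.3) as 10 groups with clutch as a block, which left 8 residual degrees of freedom. Adjustment of p-values was by Benjamini-Hochberg over all probe sets, with 0.1 as the threshold. Errors are standard errors of this fit unless named otherwise. Nothing in the labels says that the 2 arrays of a condition came from more than 1 pool per clutch. With clutch as a block, p-values measure how differences between conditions varied from clutch to clutch, pooled over the 10 groups. The shift between clutches that all conditions share is taken out. The pairing comes from the labels, which assign each set of 5 conditions to a clutch; deviations of clutch 2 from clutch 1 correlated across probe sets between every pair of conditions (r from 0.68 to 0.84; Nog+Dkk with Dor 0.78). For Nog+Dkk and Dkk of clutch 2 the title and another label field name different clutches, and the title was used. The levels of the Nog+Dkk array go with its title. Its log2 difference from Dor of clutch 2 had an SD of 0.209, against 0.358 from the Nog+Dkk array of clutch 1. An exact permutation test of 2 against 2 arrays cannot reach the threshold and was not used.

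Named probe sets were, in each direction, the 15 largest called differences with a single symbol, the 2 largest without a symbol, those of noggin and dkk1, the called members of 17 gene lists, and for each list the uncalled members with the largest differences or, for organizer lists, the narrowest intervals; lists matched on symbols, and a gene can stand in several lists. Members and lists were chosen with earlier results of these data known. Alternatives changed the block, the arrays fitted, the variance prior, the normalization, the dim probe sets, the clutch labels, the threshold and the test (rank products of clutch-matched pairs, the study's method). The code was tested on simulated data. No sequence is shown, since no sequence table was used here. Figures were drawn with matplotlib 3.10.9.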

Additional observations from a re-analysis of the deposited data

Results flagged for a closer look

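The difference between Nog+Dkk and Dor was not the same at stage 10 and stage 11.5 for 24 probe sets by the limma test of the difference between the stages. Among the probe sets named above, the following changes of Nog+Dkk minus Dor, stage 11.5 minus stage 10, brought the estimate closer to 0. They were 3.08 for nodal3.1.L (adjusted p = 7.08e-07), 2.44 and 2.62 for the chrd.1.S probe sets (0.00352 and 0.00104), 1.08 for nog.L (0.00529) and 1.08 for Xl.19601.1.A1_at (0.00529). Of the genes brighter in Nog+Dkk at stage 10 they were -2.03 for aplnr.S (3.64e-04), -1.05 for aplnr.L (0.00671), -1.504 for foxi1.L (0.00914), -1.23 for foxi4.2.L (0.0391), -1.14 for ventx2.2.L (0.0416) and -0.85 for tfap2a.L (0.0754).

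Other genes that were not called at stage 10 were lower in Nog+Dkk than in Dor at stage 11.5. For frzb2.L, a secreted Frizzled-related protein, the probe sets changed by -1.66 (adjusted p = 0.00352) and -2.12 (1.65e-06), and for nodal.L by -1.39 (0.0242). The second frzb2.L probe set read 3.12 and 3.29 in Nog+Dkk against 3.41 and 3.28 in Dor at stage 10, all below the lower quartile of their arrays. At stage 11.5 it read 3.59 and 4.59 in Nog+Dkk against 5.90 and 6.81 in Dor. The stages came from different clutches and were cut by different landmarks, and the part of clutch or of cutting in these changes was not tested.

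Of the 120 control probe sets left out of the fit, the one with the largest difference gave 14.01 and 13.96 in Nog+Dkk against 13.08 and 13.55 in Dor at stage 10, a difference of 0.67. It lay between 13.82 and 14.04 on the 16 arrays of ventral pieces and at 11.48 and 11.79 in Dor of stage 11.5. The tables used here do not name its target.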

How the results depend on the processing

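None of the 57 named calls changed direction under an alternative, which could hardly come out otherwise and is not support for them. All 115 calls had the same sign in both clutches, and several alternatives leave the difference itself unchanged. Named probe sets that were not called could change direction, such as nodal.L (0.26, and -0.17 without clutch 1) and dkk1.S (0.04, and -0.02 without clutch 2). With clutch as the replicate block, 115 probe sets were called for Nog+Dkk against Dor (64.4% of them higher in Nog+Dkk), 24 for the difference between stages and 1 for Nog+Dkk against Nog. Without the block the counts were 19 (26.3% higher in Nog+Dkk), 1 and 0, and 15 of the 57 named calls remained. With clutch as the other label field gives it they were 24 (33.3% higher), 5 and 0, with 17 named calls left. Without the 2 arrays that have 2 clutch labels, an alternative chosen after seeing the data, they were 49 (24 higher and 25 lower), 8 and 0. The 4 arrays alone, as 2 pairs, gave 319 calls, because the variance prior then became infinite and every probe set was given the same variance. Leaving out a clutch or a single array gave from 33 to 72 calls for Nog+Dkk against Dor, from 9 to 88 for the difference between stages, and 0 or 1 for Nog+Dkk against Nog. Restricting the test to the brighter probe sets left 10 for the stages. A trended, robust prior and cyclic loess each gave 0 for Nog+Dkk against Nog, where limma found 739 higher and 266 lower at an unadjusted p below 0.05 in the design used. Those unadjusted counts include probe sets that pass by chance. The stage 10 arrays alone (154 calls), median centring (107), a threshold of 0.05 (86) and rank products (121, of which 97 were shared) stayed within 1.5 times the 115. With 2 arrays per condition, small or dim differences are limited by the number of arrays, and the causes of lost calls were not tested.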
